A study of Mus musculus with 12 samples.

Results

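The proto-oncogene Myc and 9 immediate early genes (Jun, Junb, Jund, Fos, Fosl2, Egr1, Ier2, Ier3 and Klf6) were followed across 12 liver RNA-seq libraries, all from the mouse strain Rosa26-LSL-dCas9-p300. The 10 genes were matched by symbol among the 50600 genes of the count files. All 10 passed the filter on low counts, as did 15219 genes in all. This strain carries at Rosa26 a fusion of nuclease-dead Cas9 to the acetyltransferase p300, which a guide RNA (gRNA) brings to a chosen site, behind a stop cassette (LSL) that Cre recombinase removes. Every group carried this allele. Of the 3 groups of 4 libraries, the first received an adeno-associated virus (AAV) with a gRNA against Pdx1, a pancreatic transcription factor gene, and the next the AAV with a control gRNA, each at 1e+12 viral genomes per mouse. The last received PBS and no virus. Mice about 8 weeks old were injected through the tail vein, and their livers were snap frozen 2 weeks later. The vector is named AAV.Cbh.gRNA in the labels. The sources used here do not give the source of Cre, the sex of the animals or the hour of harvest. Virus, cargo and guide therefore cannot be told apart in the comparisons with PBS. Whether every library stands for a separate animal is not stated, and the p-values below therefore reflect library-to-library spread, which may be partly technical.

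Immediate early genes are transcribed within minutes of a stimulus such as a growth factor, stress or wounding, from factors already present in the cell, and their RNAs are short-lived. JUN and FOS family proteins pair into the transcription factor AP-1, EGR1 and KLF6 are zinc finger factors, and MYC pairs with MAX to drive ribosome production and cell growth. In the liver these genes are known for their surge after partial hepatectomy and for responding to the handling of the tissue itself.

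The proximal promoters of Jun, Fos and Klf6 are shown because these genes rose in both virus groups and because their start site in the RefSeq table was the start of the gene in the count annotation. Each sequence is the 250 bases before the start site, 5′ to 3′ on the gene's own strand, from RefSeq (GRCm38.p6): chr4:95052223-95052472 on the minus strand for Jun, chr12:85473640-85473889 on the plus strand for Fos and chr13:5861239-5861488 on the plus strand for Klf6. Capitals mark the letters of the motifs searched, on either strand.
Jun: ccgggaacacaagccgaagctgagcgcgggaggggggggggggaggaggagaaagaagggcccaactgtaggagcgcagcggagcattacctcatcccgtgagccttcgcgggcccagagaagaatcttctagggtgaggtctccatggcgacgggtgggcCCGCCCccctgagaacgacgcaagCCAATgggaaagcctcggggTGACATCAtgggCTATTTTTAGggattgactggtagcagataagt
Fos: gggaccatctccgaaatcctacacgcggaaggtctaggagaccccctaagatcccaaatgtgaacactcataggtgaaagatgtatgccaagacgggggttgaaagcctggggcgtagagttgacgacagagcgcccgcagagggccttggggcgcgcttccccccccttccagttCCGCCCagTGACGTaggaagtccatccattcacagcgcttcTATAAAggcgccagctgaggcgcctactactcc
Klf6: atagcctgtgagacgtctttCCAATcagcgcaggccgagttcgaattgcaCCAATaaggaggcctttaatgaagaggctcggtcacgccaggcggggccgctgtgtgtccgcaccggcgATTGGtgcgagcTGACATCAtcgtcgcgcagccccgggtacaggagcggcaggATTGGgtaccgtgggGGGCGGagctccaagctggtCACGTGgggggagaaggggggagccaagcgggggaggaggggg
The Jun and Klf6 windows both hold TGACATCA, a variant of the AP-1 and cAMP response element (CRE) letters. It lies at -45 to -38 in Jun and at -119 to -112 in Klf6, counted from the base before the start site as -1, and 2.93% of 32851 promoter windows of the same length hold it on either strand. The Fos window holds TGACGT, the CRE core, at -66 to -61 (6.47% of windows) and TATAAA at -33 to -28 (12.4%). The Jun window also holds a MEF2 box at -33 to -24 (0.508% of windows). The Klf6 window holds CACGTG, the E-box letters that MYC and MAX bind, at -43 to -38 (6.02%). CCAAT stands in Jun once and in Klf6 at 4 places (33.8% of windows), and GGGCGG, the GC box, in all 3 (32.7%). Neither TGANTCA (6.75%) nor a CArG box (1.47%), the site of serum response factor, stands in these windows. Sites more than 250 bases before the start site were not searched, so the genes may hold such letters farther out. Of the 10 genes, 7 had an entry in the promoter table. These matches are descriptions of letters, not of bound sites.

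Libraries held 13531769 to 18063529 counts after Pdx1 gRNA, 16963079 to 22008046 after control gRNA and 11824767 to 17870498 after PBS. Pdx1 itself had 26, 32, 54 and 256 counts in the Pdx1 gRNA libraries, against 0, 0, 0 and 2 counts in the control gRNA libraries and 0 in every PBS library. PBS libraries 2 and 3 stood apart in sex-linked RNA, with 1024 and 828 counts of the Y-linked Ddx3y and 33 and 43 of Xist, where the other 10 libraries had at most 3 of Ddx3y and at least 10696 of Xist. By these RNAs PBS held libraries of a male and of a female pattern, and both virus groups held the female pattern alone. Sex-linked pattern is thus not balanced in the comparisons with PBS. Results against PBS are therefore also given with PBS libraries 2 and 3 left out, a choice made on seeing the data. Levels below are CPM, read counts scaled to a common library size after TMM correction. A gene is called, and is said to have risen or fallen, at an adjusted p under 0.05 (Benjamini-Hochberg over 15219 genes, edgeR quasi-likelihood test). Scaling matters for the split of all calls: with total counts alone the median log2 fold change of all genes was 0.22 with the Pdx1 gRNA and 0.34 with the control gRNA, both relative to PBS, where TMM gave -0.06 and -0.01. The share of calls that were higher then became 81.28% in place of 53.03%, and 80.64% in place of 50.91%; upper-quartile factors gave 61.81% in the control gRNA comparison. The members called were the same 6 and 5 under every scaling.

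Myc, Jun, Jund, Fos and Klf6 rose in the livers of both virus groups relative to PBS, and Fosl2 rose with the Pdx1 gRNA. Against PBS, 6 of 10 members rose with the Pdx1 gRNA, where 11.7% of all tested genes rose, and 5 of 10 rose with the control gRNA, where 16.3% rose. None of the 10 fell, against 10.4% and 15.8% of all tested genes (called either way, 22.1% and 32.1%), and none was lower at an unadjusted p under 0.05 in edgeR or was called lower by DESeq2 or limma-voom. The comparisons share the PBS libraries and are not independent. The median log2 fold change of the 10 members was 1.11 with the Pdx1 gRNA and 0.72 with the control gRNA, beside -0.06 and -0.01 over all genes. Between the virus groups no member was called. Without PBS libraries 2 and 3 the count of members called was 3 with the Pdx1 gRNA (Myc, Jun and Jund) and 3 with the control gRNA (Myc, Jun and Klf6). With single libraries left out it ran from 4 to 7 in both comparisons. In bulk liver, more cells of a type and more RNA per cell cannot be told apart.

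**Figure D1:**
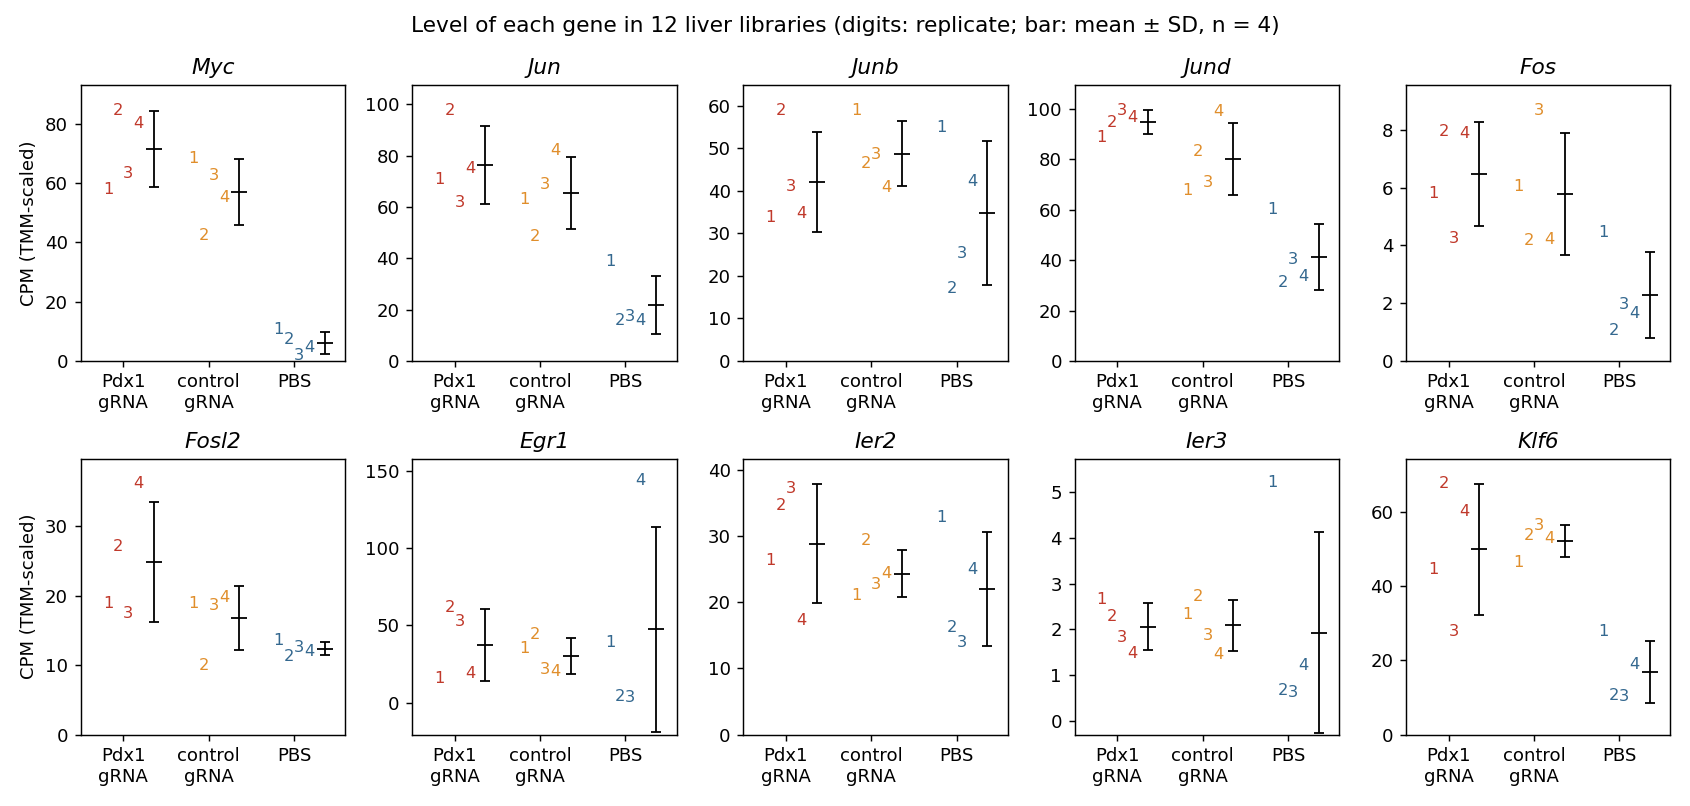
Level of each of the 10 genes in CPM (vertical axis, TMM-scaled, from 0 where no error bar goes below it) in the Pdx1 gRNA, control gRNA and PBS libraries. Digits give the replicate number of each library and the bar beside them the mean ± SD (n = 4); the Myc digits of all 8 virus libraries stand above all 4 PBS digits, while the Egr1 and Ier3 digits of PBS span those of both virus groups.

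Myc (ENSMUSG00000022346.15, chromosome 15, 61985391 to 61990374, plus strand, mm10) had the largest fold change of the 10. It had 57.9, 84.8, 63.4 and 80.2 CPM in Pdx1 gRNA libraries 1 to 4, 68.2, 42.4, 62.5 and 55.3 CPM in control gRNA libraries 1 to 4, and 10.6, 7.13, 1.84 and 4.58 CPM in PBS libraries 1 to 4. The lowest virus library, control gRNA library 2, lay above the highest PBS library, so neither virus group overlapped PBS, and the virus groups overlapped each other. Means were 71.6 ± 12.9, 57.1 ± 11.1 and 6.04 ± 3.73 CPM (SD, n = 4 each). The fold change was 11.7-fold with the Pdx1 gRNA (log2 3.54 ± 0.38, SE; edgeR adjusted p = 0.000166) and 9.31-fold with the control gRNA (3.22 ± 0.38; 0.000238). Raw Myc counts per library were 839 to 1578 with the Pdx1 gRNA, 813 to 1829 with the control gRNA and 18 to 177 with PBS. Myc stayed called in all 23 alternatives of each comparison with PBS, with log2 fold changes from 3.22 to 3.97 and from 2.88 to 3.65.

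The JUN family gave different answers gene by gene. JUN is the most active AP-1 partner, JUNB often restrains it, and JUND is the form that resting cells hold. Jun (ENSMUSG00000052684.4, chromosome 4, 95049034 to 95052222, minus strand) had 70.7, 97.7, 61.9 and 74.8 CPM in Pdx1 gRNA libraries, 62.8, 48.4, 68.7 and 82.0 CPM in control gRNA libraries and 38.7, 15.6, 17.3 and 15.6 CPM in PBS libraries. No virus library came down to PBS library 1, which was itself well above the other 3 PBS libraries. Jun rose 3.49-fold with the Pdx1 gRNA (log2 1.80 ± 0.29; edgeR adjusted p = 0.00167) and 2.99-fold with the control gRNA (1.58 ± 0.29; 0.00209). It stayed called in all 23 alternatives of each comparison, and its smallest values, 1.48 and 1.25, came without PBS libraries 2 and 3.

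Jund (ENSMUSG00000071076.6, chromosome 8, 70698949 to 70700616, plus strand) had 88.6, 94.8, 99.6 and 96.6 CPM in Pdx1 gRNA libraries, 67.8, 83.2, 70.8 and 98.9 CPM in control gRNA libraries and 60.2, 31.0, 40.1 and 33.6 CPM in PBS libraries. The Pdx1 gRNA libraries lay close together, with an SD of 4.91% of their mean, and neither virus group overlapped PBS. Jund rose 2.30-fold with the Pdx1 gRNA (log2 1.20 ± 0.20; edgeR adjusted p = 0.00185) and 1.94-fold with the control gRNA (0.96 ± 0.20; 0.00385). With PBS libraries 2 and 3 left out, the control gRNA value was 0.75 with an adjusted p of 0.0552, which ends that call. The annotated gene Gm11175 covers 52.6% of Jund's exon bases on the other strand, and its own count was 0 in all groups. Counting was without regard to strand, so reads over both genes may have been left out of either count. The count of 0 therefore does not show that the overlap left the Jund level unaffected. The FPKM of Jund given below divides by all its exon bases and would then be too low.

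Junb (ENSMUSG00000052837.6, chromosome 8, 84974484 to 84978718, minus strand) was not called. It had 33.8, 58.9, 41.1 and 34.6 CPM in Pdx1 gRNA libraries, 59.0, 46.5, 48.5 and 40.7 CPM in control gRNA libraries and 54.9, 17.0, 25.2 and 42.2 CPM in PBS libraries. The 3 groups overlapped because PBS libraries 1 and 4 were as high as virus libraries while PBS libraries 2 and 3 were below all of them. Log2 fold changes were 0.27 ± 0.31 with the Pdx1 gRNA (edgeR adjusted p = 0.56) and 0.48 ± 0.30 with the control gRNA (0.248). Without PBS replicate 1 the control gRNA value was 0.78 and passed (adjusted p = 0.0435), and without PBS libraries 2 and 3 both values turned below 0 (-0.22 and -0.02). Jun shares 232 exon bases with its antisense gene Junos and Junb shares 173 with Prdx2, which are 7.28% and 7.52% of their exons, so reads there cannot be assigned to a strand.

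FOS family proteins need a JUN partner to bind DNA. Fos (ENSMUSG00000021250.13, chromosome 12, 85473890 to 85477273, plus strand) was a low transcript, with 5.80, 7.96, 4.23 and 7.87 CPM in Pdx1 gRNA libraries, 6.04, 4.17, 8.69 and 4.21 CPM in control gRNA libraries and 4.44, 1.05, 1.95 and 1.65 CPM in PBS libraries. PBS library 1 reached into both virus groups, and the other 3 PBS libraries lay below all 8 virus libraries. Fos rose 2.79-fold with the Pdx1 gRNA (log2 1.48 ± 0.41; edgeR adjusted p = 0.0232) and 2.50-fold with the control gRNA (1.32 ± 0.41; 0.0269). Both calls were close to the threshold. The first was lost without PBS replicate 2, 3 or 4 or Pdx1 gRNA replicate 2 or 4, with adjusted p up to 0.0611. The second was lost without PBS replicate 2, 3 or 4 or control gRNA replicate 1 or 3, with adjusted p up to 0.0921, and with only the 8 libraries compared (0.0537). When PBS libraries 2 and 3 were left out, the values were 1.07 (adjusted p = 0.155) and 0.90 (0.195).

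Fosl2 (ENSMUSG00000029135.10, chromosome 5, 32135801 to 32157842, plus strand), which encodes the FOS relative FRA2, had 18.9, 27.0, 17.5 and 36.1 CPM in Pdx1 gRNA libraries, 18.9, 9.96, 18.6 and 19.7 CPM in control gRNA libraries and 13.5, 11.3, 12.5 and 12.0 CPM in PBS libraries. All Pdx1 gRNA libraries lay above all PBS libraries, whereas control gRNA library 2 was below every PBS library. Fosl2 rose 2.02-fold with the Pdx1 gRNA (log2 1.01 ± 0.25; edgeR adjusted p = 0.0142). With the control gRNA the value was 0.44 ± 0.25 (0.196), and the difference between the virus groups was 0.57 ± 0.25 (unadjusted p = 0.0391, adjusted p = 0.809), which did not pass. The Pdx1 gRNA call was lost without Pdx1 gRNA replicate 4 (0.76, adjusted p = 0.0501) and without PBS libraries 2 and 3 (0.95, 0.106).

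Klf6 (ENSMUSG00000000078.6, chromosome 13, 5861489 to 5870393, plus strand), a zinc finger factor induced on liver injury, had 44.4, 67.4, 27.8 and 59.99 CPM in Pdx1 gRNA libraries, 46.2, 53.5, 56.3 and 52.9 CPM in control gRNA libraries and 27.9, 10.5, 10.2 and 18.9 CPM in PBS libraries. The control gRNA libraries were tight and all above PBS, and Pdx1 gRNA library 3 was just under PBS library 1. Klf6 rose 2.94-fold with the Pdx1 gRNA (log2 1.56 ± 0.32; edgeR adjusted p = 0.0062) and 3.08-fold with the control gRNA (1.62 ± 0.33; 0.00331). In the fit lacking PBS libraries 2 and 3, the values were 1.09 (adjusted p = 0.0579, no longer called) and 1.14 (0.0382).

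**Figure D2:**
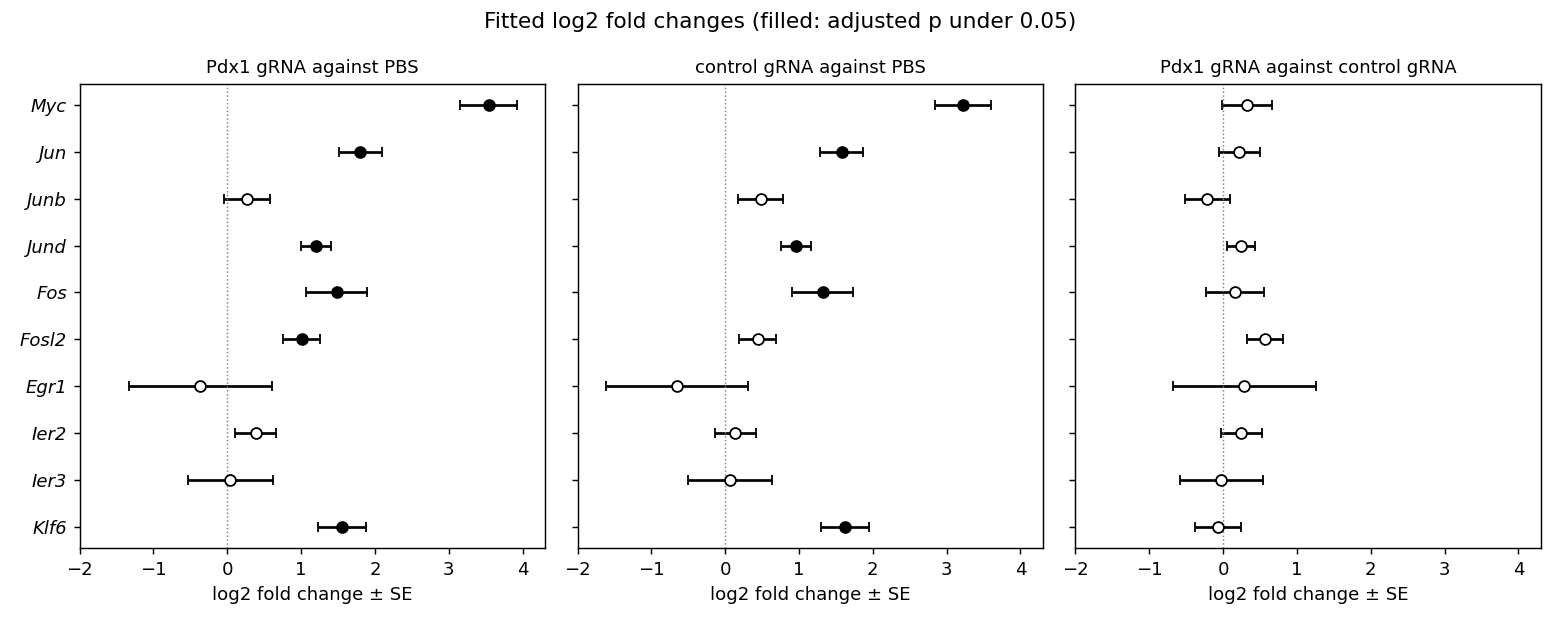
Fitted log2 fold change ± SE (horizontal axis) of each of the 10 genes in 3 panels: Pdx1 gRNA over PBS, control gRNA over PBS, and Pdx1 gRNA over control gRNA. Filled points have an adjusted p under 0.05 (6, 5 and 0 genes), and Myc lies farthest right in both comparisons with PBS, at 3.54 and 3.22.

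Egr1, Ier2 and Ier3 were not called in any comparison. EGR1 is the growth-factor responsive zinc finger regulator, and Egr1 (ENSMUSG00000038418.7, chromosome 18, 34859823 to 34864984, plus strand) had the largest SD relative to its mean of the 10 within each group. It had 15.6, 61.8, 52.4 and 18.6 CPM in Pdx1 gRNA libraries, 35.3, 44.3, 21.4 and 20.1 CPM in control gRNA libraries and 38.7, 3.90, 3.28 and 144 CPM in PBS libraries. The PBS group held both the lowest and the highest Egr1 levels of the 12 libraries, with an SD of 139.9% of its mean. Log2 fold changes were -0.36 ± 0.96 with the Pdx1 gRNA (edgeR adjusted p = 0.818) and -0.65 ± 0.97 with the control gRNA (0.644), and without PBS replicate 4 they were 1.25 and 0.96, also not called.

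Ier2 (ENSMUSG00000053560.4, chromosome 8, 84661331 to 84662852, minus strand), a nuclear protein gene, had 26.3, 34.6, 37.2 and 17.2 CPM in Pdx1 gRNA libraries, 21.0, 29.2, 22.6 and 24.3 CPM in control gRNA libraries and 32.7, 16.2, 13.9 and 24.9 CPM in PBS libraries. All 3 groups overlapped. The log2 fold changes were 0.39 ± 0.28 (edgeR adjusted p = 0.342) with the Pdx1 gRNA and 0.14 ± 0.28 (0.74) with the control gRNA. Ier3 (ENSMUSG00000003541.6, chromosome 17, 35821684 to 35822923, plus strand), which encodes a stress-induced survival protein, had 2.64, 2.28, 1.81 and 1.47 CPM in Pdx1 gRNA libraries, 2.31, 2.71, 1.86 and 1.44 CPM in control gRNA libraries and 5.22, 0.665, 0.615 and 1.22 CPM in PBS libraries. PBS library 1 was the highest of all 12 and the other 3 PBS libraries were the lowest. The log2 fold changes were 0.04 ± 0.57 with the Pdx1 gRNA (adjusted p = 0.965) and 0.06 ± 0.57 with the control gRNA (0.944). Without PBS replicate 1 they were 1.26 (0.0204) and 1.28 (0.0144), both called, and without PBS libraries 2 and 3 they were -0.66 and -0.65, not called.

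Pdx1 gRNA and control gRNA livers did not differ detectably in any of the 10 genes. No member was called by edgeR, DESeq2 or limma-voom, and Fosl2 alone had an unadjusted p under 0.05. Over all genes edgeR called 0%, with 918 genes at an unadjusted p under 0.05, while DESeq2 called 14 genes and limma-voom 0. The targeted gene Pdx1, whose counts are given above, was thus not called by edgeR either. The lack of a call between these groups therefore does not show equal levels. The log2 differences of the 10 members ran from -0.21 (Junb, ± 0.30) to 0.57 (Fosl2), with a median of 0.23. Myc differed by 0.32 ± 0.34 (adjusted p = 0.898), Jun by 0.22 ± 0.28 (0.913) and Klf6 by -0.07 ± 0.31 (0.979). Pdx1 gRNA library 4, with 256 of the Pdx1 counts, had the highest Fosl2 level of its group and the lowest Ier2 and Ier3 levels.

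Groups that did not overlap gave a similar picture. Every virus library exceeded every PBS library in 4 of 10 members with the Pdx1 gRNA (Myc, Jun, Jund and Fosl2), as in 12.7% of all tested genes (8.74% were fully lower), and in 4 of 10 with the control gRNA (Myc, Jun, Jund and Klf6), as in 16.5% (12.3% fully lower). No member separated the virus groups from each other, where 3.48% of all tested genes were fully higher and 3.17% fully lower in the Pdx1 gRNA libraries.

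Levels of different genes were compared per length, as CPM per kilobase of annotated exon (FPKM). Jund was the most abundant member in each group, at 56.9 ± 2.79, 48.1 ± 8.47 and 24.7 ± 7.93 FPKM in Pdx1 gRNA, control gRNA and PBS livers (SD, n = 4 each). In Pdx1 gRNA livers Myc (26.3), Jun (23.9), Ier2 (18.9), Junb (18.3), Klf6 (11.8) and Egr1 (8.28 FPKM) followed, each overlapping the next in its library range. Fos (2.75) did not overlap Egr1, while Fosl2 (2.57) did, its highest library being at 3.73 FPKM and the lowest Egr1 library at 3.49 FPKM, and Ier3 (1.82 FPKM) was last. In control gRNA livers Junb (21.2), Myc (21.0), Jun (20.5) and Ier2 (15.9 FPKM) overlapped in turn, ahead of Klf6 (12.4), Egr1 (6.75), Fos (2.46), Ier3 (1.84) and Fosl2 (1.73 FPKM). In PBS livers each gene overlapped the next in the order Jund, Junb (15.1), Ier2 (14.4), Egr1 (10.6), Jun (6.83), Klf6 (4.0), Myc (2.22), Ier3 (1.70), Fosl2 (1.28) and Fos (0.964 FPKM). Myc thus ranked 2 of 10 by level with the Pdx1 gRNA, 3 with the control gRNA and 7 with PBS.

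The PBS livers were the least uniform in 9 of 10 members by the SD relative to the mean; Fosl2 was the exception, at 34.6% of the mean with the Pdx1 gRNA, 27.2% with the control gRNA and 7.62% with PBS. PBS library 1 had the highest level of its group in 9 of 10 members, Egr1 being the exception, and PBS libraries 2 and 3 shared the lowest levels, 5 members each. PBS libraries 1 and 4 were both above PBS libraries 2 and 3 in 5 members, Junb, Egr1, Ier2, Ier3 and Klf6. Averaged over the 10 members on the log2(CPM + 1) scale, each gene relative to its own mean over 12 libraries, the PBS libraries stood at 0.04, -1.29, -1.31 and -0.49, the Pdx1 gRNA libraries between 0.25 and 0.80 and the control gRNA libraries between 0.25 and 0.38. Within the Pdx1 gRNA group library 2 was highest in 6 members, namely Myc, Jun, Junb, Fos, Egr1 and Klf6. The part of sex or of the handling of the tissue in these differences was not tested.

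**Figure D3:**
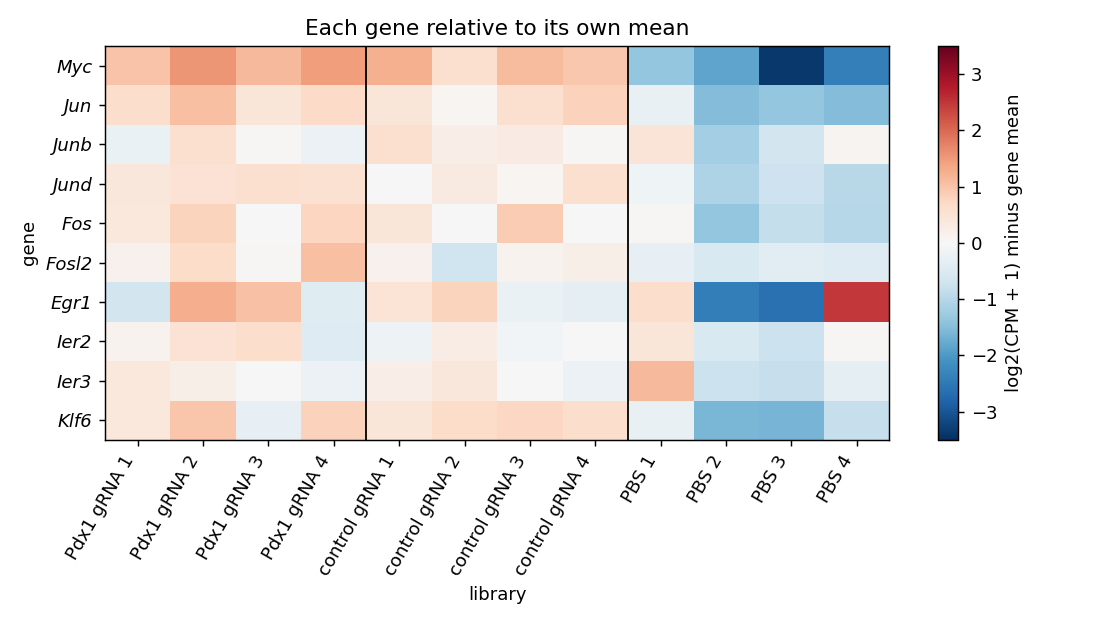
Level of each gene (rows) in each library (columns) as log2(CPM + 1) minus the gene's mean over the 12 libraries, red above and blue below it. The darkest blue is Myc in PBS library 3 (1.84 CPM) and the darkest red Egr1 in PBS library 4 (144 CPM); PBS libraries 2 and 3 are blue in all 10 rows.

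The pairs of members whose patterns were closest over the 12 libraries were Jun with Klf6 (root mean square difference of 0.35 on the centred log2 scale), Ier2 with Ier3 (0.36), Junb with Ier3 (0.36) and Junb with Ier2 (0.37). Egr1 was the farthest from its nearest member, Junb at 1.06, and Myc came next, its nearest being Jun at 0.86. Candidates were 9934 non-member genes past the filter, averaging 5 CPM or more, with a symbol other than a predicted-gene or Rik name. Of these, the 3 nearest to Myc were Ddit3 (0.39), Cyb5r1 (0.41) and Tnfrsf12a (0.41). Ddit3, which encodes the stress factor CHOP, averaged 232 ± 29.8, 178 ± 37.1 and 14.5 ± 4.26 CPM in Pdx1 gRNA, control gRNA and PBS livers. Tnfrsf12a, the receptor of the cytokine TWEAK, averaged 103 ± 34.1, 74.3 ± 10.9 and 10.1 ± 2.78 CPM in the same groups. The genes nearest to Fos were Trip10 (0.20), Ankrd13b (0.23) and Pvr (0.25). These distances are descriptions over libraries that share depth and scaling. They were taken on log2(CPM + 1), where the added 1 shrinks the differences of genes at low levels, such as Ier3 and Fos.

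Among 33 other tested immediate early genes, 5 rose and 1 fell with the Pdx1 gRNA, and 7 rose and 1 fell with the control gRNA. These shares of risen genes are near the 11.7% and 16.3% over all tested genes. Of all tested genes 10.4% and 15.8% fell, so falls were fewer in this list. The list shares genes with those below. Errfi1 and Dusp1 are also feedback inhibitors, Srf is also an upstream factor, and Atf3, Fosb, Fosl1 and Maff are also AP-1 partners. Errfi1, which fell in both comparisons, is thus counted again below. The median log2 fold changes were 0.32 and 0.44, beside -0.06 and -0.01 over all genes. Atf3, a stress-induced bZIP factor, had 90.7, 119, 52.8 and 61.1 CPM in Pdx1 gRNA libraries, 30.2, 23.7, 32.6 and 44.7 CPM in control gRNA libraries and 13.4, 2.57, 2.66 and 2.50 CPM in PBS libraries, with no overlap between any groups. It rose by a log2 fold change of 3.89 ± 0.54 with the Pdx1 gRNA (edgeR adjusted p = 0.000868) and 2.59 ± 0.52 with the control gRNA (0.00342), and the difference of 1.30 ± 0.48 between the virus groups had an adjusted p of 0.809. Without PBS replicate 1 the Atf3 values against PBS were 4.97 and 3.66, and without PBS libraries 2 and 3 they were 3.32 and 2.01, all called. Several classical early genes were not called, among them Zfp36, Dusp1, Btg2, Nr4a1, Fosb and Socs3. With the Pdx1 and the control gRNA, Zfp36 had -0.72 and -0.59, Dusp1 0.39 and 0.17 and Btg2 0.32 and 0.53. Nr4a1 had 0.91 and 0.85, Fosb -1.22 and 0.44 and Socs3 -0.07 and -0.27. Without PBS libraries 2 and 3 the calls in this list numbered 2 with the Pdx1 gRNA and 4 with the control gRNA, and without control gRNA replicate 3 the 8 calls of the control gRNA comparison became 5.

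Partners and regulators had calls in both directions, at shares to be read against all tested genes, of which 11.7% rose and 10.4% fell with the Pdx1 gRNA and 16.3% rose and 15.8% fell with the control gRNA. Of 12 AP-1 partner bZIP genes, which include Atf3, 2 rose and 0 fell with the Pdx1 gRNA and 2 rose and 1 fell with the control gRNA (median log2 fold changes 0.22 and 0.56). Of 29 kinases and factors upstream of immediate early genes, 3 rose and 3 fell with the Pdx1 gRNA and 3 rose and 7 fell with the control gRNA (medians -0.09 and -0.17), which is close to those shares with the Pdx1 gRNA. Mapk3, which encodes ERK1, rose with the control gRNA (0.86 ± 0.20; edgeR adjusted p = 0.00623) and had 0.57 ± 0.20 (0.0536) with the Pdx1 gRNA. Mapk14, which encodes p38 alpha, fell with both (-0.59 ± 0.17, 0.0244, and -0.85 ± 0.17, 0.0029), the first call being lost without PBS replicate 2, 3 or 4 or Pdx1 gRNA replicate 1, 2 or 4 (adjusted p up to 0.0758). With PBS libraries 2 and 3 left out, the calls among the 12 partners numbered 1 and 1 and among the 29 upstream genes 1 and 6, and Mapk3 with the control gRNA had 0.76 with an adjusted p of 0.0805. The calls among partners became 5 in each comparison without PBS replicate 1. The 6 upstream genes called with the Pdx1 gRNA became 13 without PBS replicate 1, 3 without PBS replicate 2 and 2 without PBS replicate 4 or Pdx1 gRNA replicate 1, 2 or 4. Srf and Creb1, the factors of the CArG box and the CRE, were not called (0.03 and -0.09 for Srf, -0.29 and -0.28 for Creb1).

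Of 17 feedback inhibitors of MAP kinase and EGR signalling, 4 rose and 2 fell with the Pdx1 gRNA and 4 rose and 3 fell with the control gRNA (medians -0.08 and 0.09). Shares over all tested genes were 11.7% risen and 10.4% fallen with the Pdx1 gRNA, and 16.3% and 15.8% with the control gRNA. Errfi1, an inhibitor of the EGF receptor, had 975, 970, 1126 and 641 CPM in Pdx1 gRNA libraries, 579, 686, 737 and 767 CPM in control gRNA libraries and 1307, 1999, 1842 and 1860 CPM in PBS libraries. All 8 virus libraries lay below all PBS libraries. It fell by 0.92 on the log2 scale with the Pdx1 gRNA (± 0.22; edgeR adjusted p = 0.0108) and by 1.34 with the control gRNA (± 0.22; 0.00115). Spry4, which restrains growth factor signalling, fell by 1.42 (± 0.37; 0.0162) and by 2.20 (± 0.37; 0.00143). Dusp6 and Nab2, the feedback genes of ERK and EGR1, were not called (0.35 and 0.11 for Dusp6, 0.17 and 0.22 for Nab2). The genes of this list that rose were not among those fixed for naming. The named genes therefore do not stand for the list, in which more genes rose than fell in both comparisons. When PBS libraries 2 and 3 were left out, the calls in this list numbered 3 and 3, and the Pdx1 gRNA calls of Errfi1 (-0.79, adjusted p = 0.0837) and Spry4 (-1.18, 0.111) were lost. Without control gRNA replicate 3 the 7 calls of the control gRNA comparison became 4.

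In the MYC network, 4 of 18 tested genes rose and 3 fell with the Pdx1 gRNA, and 2 rose and 4 fell with the control gRNA (medians -0.08 and -0.14). Over all tested genes 11.7% rose and 10.4% fell with the Pdx1 gRNA, and 16.3% rose and 15.8% fell with the control gRNA. Counts this small do not set the list apart from those shares, and the difference was not tested. Max, the obligate partner of MYC, had 45.0, 50.4, 48.4 and 61.8 CPM in Pdx1 gRNA libraries, 55.8, 51.7, 54.0 and 46.9 CPM in control gRNA libraries and 41.3, 31.5, 34.6 and 32.3 CPM in PBS libraries. All virus libraries lay above all PBS libraries, and Max rose by a log2 fold change of 0.56 ± 0.13 with the Pdx1 gRNA (edgeR adjusted p = 0.0117) and 0.58 ± 0.13 with the control gRNA (0.00677). Mxd4, whose protein competes with MYC for MAX, fell by 0.75 (± 0.13; 0.00235) and by 0.70 (± 0.13; 0.00225), at 72.8 ± 5.62, 75.3 ± 9.40 and 122 ± 11.7 CPM in Pdx1 gRNA, control gRNA and PBS livers. Mycn and Mycl were not called (-1.07 and -2.16 for Mycn, -0.62 and -0.69 for Mycl). In the fit lacking PBS libraries 2 and 3, the calls numbered 2 and 3, and Max was called in neither comparison (log2 0.47 and 0.48, adjusted p = 0.114 and 0.0884). The 7 calls with the Pdx1 gRNA became 3 without PBS replicate 2 or 3 or Pdx1 gRNA replicate 1 or 3, and 4 without control gRNA replicate 3 or Pdx1 gRNA replicate 2 or 4. The 6 calls with the control gRNA became 10 without PBS replicate 1. Mlxipl, the glucose-sensing MAX-like network gene ChREBP, averaged 391, 255 and 800 CPM in Pdx1 gRNA, control gRNA and PBS livers, with log2 fold changes of -1.03 (not called) and -1.65 (edgeR adjusted p = 0.0306). The Mlxipl call was lost without PBS replicate 1 or 3 or control gRNA replicate 1 or 3, with adjusted p up to 0.0781.

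Most of the listed MYC target genes rose. Of 35 tested, 27 rose and 0 fell with the Pdx1 gRNA and 24 rose and 1 fell with the control gRNA. Of all tested genes 11.7% and 16.3% rose and 10.4% and 15.8% fell. The median log2 fold changes of the list were 0.82 and 0.63. Nop56, a core protein of small nucleolar RNPs, had 101, 106, 111 and 132 CPM in Pdx1 gRNA libraries, 103, 74.2, 91.4 and 84.2 CPM in control gRNA libraries and 56.0, 30.3, 28.3 and 24.3 CPM in PBS libraries. No virus library overlapped PBS. It rose by 1.70 ± 0.23 with the Pdx1 gRNA (edgeR adjusted p = 0.000763) and by 1.34 ± 0.23 with the control gRNA (0.00153). The nucleolar genes Ncl (0.96 and 0.83) and Npm1 (0.94 and 0.97) and the cell cycle kinase gene Cdk4 (0.56 and 0.62) rose in both virus groups. The polyamine enzyme gene Odc1 (0.69 and 0.32) and the lactate dehydrogenase gene Ldha (-0.14 and -0.14) were not called. Without PBS libraries 2 and 3 the calls numbered 15 and 11, and Ncl (log2 0.89 and 0.76, adjusted p = 0.0711 and 0.0886), Npm1 (0.87 and 0.89, 0.0764 and 0.057) and Cdk4 (0.44 and 0.49, 0.103 and 0.0604) were no longer among them. With single libraries left out the calls ran from 21 to 26 with the Pdx1 gRNA and from 22 to 26 with the control gRNA. The list was chosen with earlier results of these livers known, so its count is not independent evidence of a direction.

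Of 19 AP-1 and EGR1 target genes, 6 rose and 0 fell with the Pdx1 gRNA and 7 rose and 0 fell with the control gRNA. Shares over all tested genes were 11.7% risen and 10.4% fallen with the Pdx1 gRNA, and 16.3% and 15.8% with the control gRNA. The medians were 0.19 and 0.90. Plaur, the urokinase receptor gene, averaged 5.22 ± 5.48, 4.74 ± 1.63 and 1.08 ± 0.428 CPM in Pdx1 gRNA, control gRNA and PBS livers and rose by 2.24 ± 0.60 (edgeR adjusted p = 0.0198) and 2.10 ± 0.60 (0.0186). The Plaur calls were lost without PBS replicate 2 or 3, without Pdx1 gRNA replicate 4 in the first comparison and without control gRNA replicate 1 in the second, with adjusted p up to 0.0609 and 0.0539. Pdx1 gRNA library 4 had 13.4 CPM of Plaur and the other 3 libraries of its group 1.96 to 2.95 CPM, and without it the value was 1.15. Hbegf, a growth factor gene, was not called (0.69 and 1.06). With PBS libraries 2 and 3 left out, the calls in this list numbered 1 and 2. The 6 calls with the Pdx1 gRNA became 3 without PBS replicate 2 or Pdx1 gRNA replicate 2, and 2 without PBS replicate 3 or Pdx1 gRNA replicate 4.

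**Figure D4:**
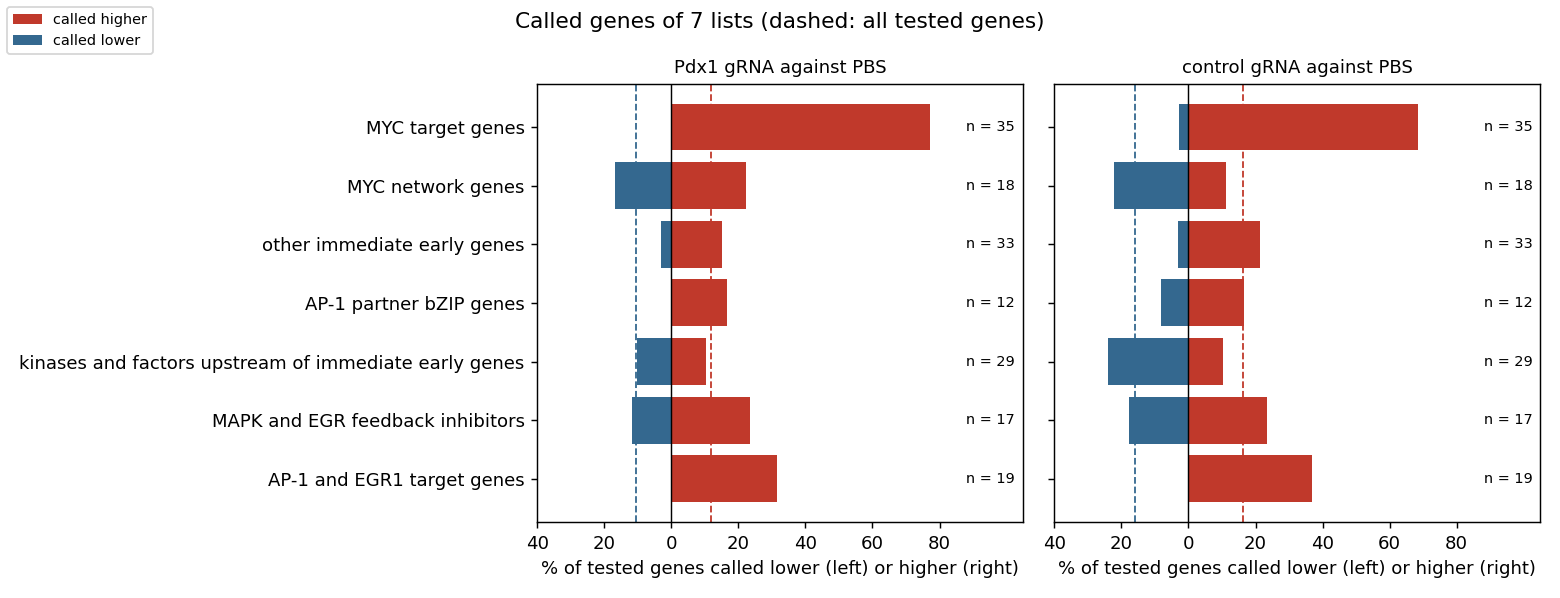
Share of the tested genes of 7 lists called higher (red, right) or lower (blue, left) in each virus group relative to PBS, in percent, with the number tested at the right and the shares over all tested genes as dashed lines. The bar of the MYC target genes, 27 of 35 and 24 of 35 called higher, is the longest in both panels.

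Some markers of liver cell types and some clock genes were called as well. Of all tested genes, 11.7% rose and 10.4% fell with the Pdx1 gRNA, and 16.3% rose and 15.8% fell with the control gRNA. The control gRNA counts below of T and NK cell, stellate cell and endothelial markers are close to those shares. Of 12 hepatocyte markers, 4 fell with the Pdx1 gRNA and 9 with the control gRNA, and none rose; their summed level was 55783 to 113180 CPM in Pdx1 gRNA, 58134 to 78108 in control gRNA and 98014 to 140450 in PBS libraries. Of 15 macrophage markers, 0 and 4 rose, with sums of 320.7 to 882.3, 433.8 to 1322 and 249.5 to 1033 CPM. Of 7 cholangiocyte markers 0 and 4 rose, of 11 T and NK cell markers 0 and 2, and of 11 stellate cell markers 0 and 1, with 1 lower in the control gRNA comparison. Their sums were 65.7 to 123, 79.9 to 439 and 44.7 to 92.9 CPM for cholangiocytes, 4.31 to 15.2, 13.7 to 23.8 and 6.84 to 14.1 CPM for T and NK cells, and 190 to 376, 293 to 913 and 365 to 523 CPM for stellate cells. Of 10 endothelial markers 4 and 2 fell, with sums of 151 to 284, 184 to 337 and 251 to 682 CPM. No B cell or neutrophil marker was called among the 7 and 4 tested, with sums of 12.6 to 23.8, 11.7 to 38.0 and 8.27 to 31.0 CPM and of 4.46 to 7.30, 11.6 to 17.2 and 3.59 to 17.0 CPM. When PBS libraries 2 and 3 were left out, the calls numbered 0 and 2 among hepatocyte markers and 0 and 0 among macrophage and cholangiocyte markers. They numbered 1 and 0 among T and NK cell markers and 3 and 2 among endothelial markers. Stellate cell and neutrophil markers each had 1 and 0 calls in that fit, and clock genes had 0 and 5. With single libraries left out, the calls ran from 1 (Pdx1 gRNA replicate 1) to 8 (PBS replicate 1) with the Pdx1 gRNA and from 4 (control gRNA replicate 3) to 9 with the control gRNA among hepatocyte markers, and in the control gRNA comparison from 2 to 8 among macrophage markers, 1 to 4 among cholangiocyte markers, 1 to 5 among T and NK cell markers, 0 to 4 among stellate cell markers and 3 to 7 among clock genes. Endothelial calls ran from 1 to 5 with the Pdx1 gRNA and from 1 to 3 with the control gRNA. Neutrophil calls ran from 0 to 2 with the control gRNA, and stellate cell calls from 0 to 2 with the Pdx1 gRNA. No listed marker was at 0 in every library. Among 15 circadian clock genes 0 were called with the Pdx1 gRNA (5 without PBS replicate 1) and 7 fell with the control gRNA, with sums of 690.9 to 1218, 526.9 to 786.0 and 935.1 to 1417 CPM. None of these lists or of the pathway lists had a gene called between the virus groups. The part of cell composition or of the hour of harvest in the levels of the 10 genes was not tested.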

How the data were processed

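Polyadenylated RNA of 12 liver libraries was sequenced. The authors deposited whole-number counts per gene, not normalized, which, per the file headers, featureCounts 1.4.6-p4 had summed over exons from read pairs, ignoring strand. Per the submitters' processing notes, Trimmomatic 0.32 and STAR 2.4.1a were used, on mm10 (GRCm38). Symbols were found for 50376 of the 50600 gene IDs.

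All 12 libraries were fitted in 1 model (edgeR 4.0.16, quasi-likelihood, robust, two-sided, R 4.3.3) after filterByExpr (minimum count 10) and TMM. CPM and FPKM were computed from the deposited counts on TMM-scaled library sizes, with exon lengths from the files. The procedure was also run on simulated counts. These held few changed genes and no sex-linked split among the PBS libraries, so that run does not bear on the limits given above. Alternatives were other scalings and filters, DESeq2 1.42.0, limma-voom (limma 3.58.1), a replicate block, only the 8 libraries compared and each library left out. No adjustment was made over the list alone.

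Members, lists, named genes (the 10 members, fixed genes of each list and the 3 genes nearest to Myc and Fos) and tests were chosen with earlier results of these data known.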

Additional observations from a re-analysis of the deposited data

Results flagged for a closer look

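Of 30 sets of 4 libraries (10 genes in 3 groups), 3 had a library far from the other 3, with a gap to the nearest above Dixon's critical value, and chance flags about 1 in 20. Jun in PBS library 1, at 38.7 CPM, lay above PBS libraries of 15.6 to 17.3 CPM. Ier3 in the same library, at 5.22 CPM, lay above PBS libraries of 0.615 to 1.22 CPM. Fosl2 in control gRNA library 2, at 9.96 CPM, lay below control gRNA libraries of 18.6 to 19.7 CPM. Without PBS replicate 1, Jun had log2 fold changes up to 2.24 with the Pdx1 gRNA and 2.02 with the control gRNA, and Ier3 was called in both comparisons. The cause of these values was not tested.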

How the results depend on the processing

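Over the 23 alternatives of each comparison, Myc and Jun kept their calls against PBS, and no member was called between the virus groups. The count of members called moved to 3 in both comparisons with PBS without PBS libraries 2 and 3, which leaves fewer samples. With 1 library left out it ran from 4 to 7 with the Pdx1 gRNA, 4 to 7 with the control gRNA and stayed at 0 between the virus groups. In these alternatives a sign turned only where the member was not called. Without PBS libraries 2 and 3, Junb had -0.22 and -0.017, Ier2 -0.018 and -0.27 and Ier3 -0.66 and -0.65 with the Pdx1 and the control gRNA. Egr1 had 0.65 and 0.55 with limma-voom. The replicate number as a block gave Egr1 0.27 with the Pdx1 gRNA and called the same 6, 5 and 0 members; labels do not say that numbers mark a batch, 3 of 12 same-numbered pairs had a correlation over 0.1 and 2 of 12 libraries correlated best with their own number. With 1 library left out, Egr1 ran from -0.75 to 1.25 with the Pdx1 gRNA, from -1.04 to 0.96 with the control gRNA and from -0.062 to 0.55 between the virus groups. Ier3 spanned -0.23 to 1.26 with the Pdx1 gRNA, -0.21 to 1.28 with the control gRNA and -0.17 to 0.13 between the virus groups. Ier2 ran from -0.025 to 0.40 with the control gRNA and Klf6 from -0.22 to 0.13 between the virus groups. The cause was not tested. Over all genes, 3370 calls with the Pdx1 gRNA became 2017 with only the 8 libraries compared, 1277 without PBS libraries 2 and 3 and from 2132 (without Pdx1 gRNA replicate 4) to 5421 (without PBS replicate 1) with 1 library left out, and 4887 with the control gRNA became 2258 without PBS libraries 2 and 3. Fos and Ier3 had the fewest counts, down to 11 and 6 in a library; what sets the precision of each gene was not tested.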
